A study of Mus musculus with 6 samples.

Results

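The 9 genes described here encode the core of the mTOR complexes (Mtor, Rptor and Rictor), their upstream switch (Tsc1, Tsc2 and Rheb), the kinase Akt1, and a pair of brakes on PI3 kinase (Pik3ip1 and Inpp5d). They were chosen by symbol, and all 9 were found among the 24421 genes of the count table and passed the filter on low counts. The RNA came from Tregs (regulatory T cells) of mouse spleen and lymph nodes, a Foxp3-expressing CD4 lineage that restrains immune responses. There were 3 Srebp2WT libraries (1, 3 and 5; genotype Srebp2WT/WT-Foxp3YFPCRE+/+) and 3 Srebp2cKO libraries (6, 7 and 8; genotype Srebp2FL/FL-Foxp3YFPCRE+/-). Both genotypes thus carried a Cre recombinase with yellow fluorescent protein at Foxp3, and Srebp2cKO alone had floxed Srebf2, which encodes SREBP2, the transcription factor of sterol synthesis. Cre dose differed together with the floxed alleles. Foxp3 is X-linked, so in a +/- animal X inactivation can leave Tregs without active Cre. The sources used here give no sort gate, age or number of animals. Nothing says that libraries are separate animals, so the p-values measure a spread between libraries that may be technical.

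PI3 kinase, activated by the T cell receptor, costimulation and cytokines, makes a membrane lipid (PIP3) that recruits the kinase AKT. AKT relieves the inhibition that the TSC1-TSC2 complex places on the small GTPase RHEB, and RHEB activates mTORC1, the complex of mTOR with RAPTOR that drives protein and lipid synthesis and promotes SREBP activity. mTORC2, the complex of mTOR with RICTOR, in turn phosphorylates AKT. Tregs need mTORC1 for their suppressive function, while strong PI3K and AKT signalling destabilises them. Most of this control acts on proteins and lipids, which RNA counts do not measure.

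Total counts were 13918321 to 17249898 per library. Srebf2, the targeted gene, fell to 6.66% of its Srebp2WT level (log2 fold change -3.91, edgeR adjusted p = 1.5e-08). The 7 Treg markers differed in direction. Il2ra was higher in Srebp2cKO (log2 fold change 0.41, edgeR adjusted p = 0.0101) and Tnfrsf18 lower (-0.39, edgeR adjusted p = 0.0438). Ctla4 had 0.23 (edgeR adjusted p = 0.0897), Ikzf2 -0.26 (0.0645), Cd3e -0.09 (0.434), Foxp3 -0.06 (0.611) and Cd4 -0.00388 (0.976). Foxp3 held 6345 to 7183 counts and Cd4 6798 to 8205 in each library, while Cd8a held at most 14, Ms4a1 at most 2 and Ncr1 0. Other markers of the same cell types were present: Cd8b1 held 99 to 137 counts, the B cell genes Cd79b 98 to 208, Cd22 47 to 249 and Cd74 219 to 769, the NK cell genes Eomes 46 to 105 and Klrb1c 9 to 42, and the myeloid gene Cybb 421 to 1299. Because these are bulk samples, fewer cells of a type and less RNA per cell cannot be told apart.

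No transcript of the 9 passed a false discovery rate of 0.05 in edgeR's quasi-likelihood test, with Srebp2cKO compared to Srebp2WT. Of all 11932 genes tested, 789 passed (6.61%), 283 of them higher (2.37%) and 506 lower (4.24%). DESeq2 and limma-voom also called 0 of the 9, against backgrounds of 11.8% and 6.55%. At an unadjusted p under 0.05 there were 4 of the 9 (Mtor, Rictor, Tsc2 and Akt1), while 29.1% of all tested genes reached that level. The 3 libraries of each genotype did not overlap for 3 of the 9 (Mtor, Rictor and Tsc2), while 31.5% of all tested genes had separated groups. The median log2 fold change was -0.10 over the 9 genes and 0.00 over all genes tested (-0.000151). Levels below are CPM, that is counts scaled by TMM-adjusted library size.

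The promoters were searched for motifs of the deleted factor (SREBP2) and of the forkhead factors that AKT controls. RefSeq windows (GRCm38.p6, 250 bases before to 50 after a start) covered all 9 genes, with 10 windows, since Akt1 had 2. The sterol regulatory element TCACNCCAC, searched on both strands, was in none of the 10 windows and in 1.24% of all 32851. The E-box CACGTG was in 7.15% of all windows and the forkhead motif GTAAACA, whose reverse complement is TGTTTAC, in 3.65%. Among the 9 genes the E-box was in the window of Rheb and the forkhead motif in 1 of the windows of Akt1. Of the other pathway genes that passed the test, Pik3ap1 and Fnip1 held an E-box, while Sgk3 had no window in the table. The E-box reads the same on both strands, and no window of these 4 genes held a second match. Each line gives 30 bases 5′ to 3′ on the strand of the gene, with the motif in capitals.
Rheb: gccgcgcgcggtCACGTGggtgtgttgttg
Akt1: atctaccctctTGTTTACactcctggtgaa
Pik3ap1: gctttcgggacaCACGTGgcacgagcaggg
Fnip1: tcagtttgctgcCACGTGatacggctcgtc
The stretches lie at chr5:24842440-24842469 (Rheb, minus strand), chr12:112675027-112675056 (Akt1, minus strand), chr19:41385257-41385286 (Pik3ap1, minus strand) and chr11:54438092-54438121 (Fnip1, plus strand). A match describes letters in a window and is not evidence of binding.

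Mtor, the kinase shared by both complexes, lies on chromosome 4 from 148448611 to 148557683 (GRCm38, plus strand). Its level was 101, 98.9 and 93.3 CPM in Srebp2WT libraries 1, 3 and 5 and 90.4, 69.4 and 84.9 CPM in Srebp2cKO libraries 6, 7 and 8. Every Srebp2cKO library lay below every Srebp2WT library, library 6 by a small margin and library 7 by the widest. The means were 97.7 ± 4.00 and 81.6 ± 10.9 CPM (SD, n = 3 libraries here and below), a log2 fold change of -0.26 (SE 0.10, 95% interval -0.48 to -0.04) that did not pass (edgeR adjusted p = 0.122).

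Rptor, which encodes the substrate-recruiting subunit RAPTOR of mTORC1, lies on chromosome 11 from 119602905 to 119899576 (plus strand). Its level was 93.9, 95.3 and 86.6 CPM in Srebp2WT and 92.3, 72.7 and 80.1 CPM in Srebp2cKO. Library 6 stood among the Srebp2WT values, so the genotypes overlapped, and library 7 was again the lowest. Its log2 fold change of -0.17 (SE 0.10) had an interval of -0.38 to 0.04 and did not pass (edgeR adjusted p = 0.259). Rptoros, an antisense transcript, shares 84 exonic bases with Rptor (1.27% of its exonic length) and was at 0 counts in 5 of the 6 libraries and 1 count in the other.

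Rictor, the defining subunit of mTORC2, lies on chromosome 15 from 6708379 to 6800401 (plus strand). Its level was 184, 190.2 and 194 CPM in Srebp2WT and 218, 218 and 209 CPM in Srebp2cKO. This was the reverse of Mtor: all Srebp2cKO libraries were above all Srebp2WT libraries, with little spread within either genotype. The means were 189 ± 5.29 and 215 ± 5.57 CPM (log2 fold change 0.18, SE 0.07, 95% interval 0.03 to 0.33), which did not pass (edgeR adjusted p = 0.113). Within each library, the ratio of Rptor to Rictor counts per kilobase of exon was 0.722, 0.708 and 0.630 in Srebp2WT and 0.597, 0.471 and 0.542 in Srebp2cKO. This ratio, chosen after its values were seen and given without a test, needs no scaling between libraries and was lower in all Srebp2cKO libraries.

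Tsc1 and Tsc2 encode hamartin and tuberin, which together switch RHEB off. Tsc2, on chromosome 17 from 24595816 to 24632630 (minus strand), stood at 71.8, 77.4 and 68.0 CPM in Srebp2WT and 62.6, 57.9 and 60.2 CPM in Srebp2cKO, with no overlap. It had the smallest p of the 9 genes (log2 fold change -0.27, SE 0.08, 95% interval -0.45 to -0.09), and its edgeR adjusted p was 0.0727. It was the 1 gene of the 9 past a looser false discovery rate of 0.1, which 15.9% of all tested genes passed (8.65% in the lower direction). Exons of Tsc2 share 693 bases (10.9% of its exonic length) with Pkd1 on the opposite strand, and the sources used here do not state whether counting used strand. Pkd1 stood at 289 ± 39.0 and 212 ± 46.2 CPM (log2 fold change -0.45, edgeR adjusted p = 0.0903), and its part in the Tsc2 count was not tested.

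Tsc1, on chromosome 2 from 28641228 to 28691167 (plus strand), was 76.9, 79.6 and 70.0 CPM in Srebp2WT and 74.8, 66.8 and 69.4 CPM in Srebp2cKO. Its genotypes overlapped (log2 fold change -0.10, 95% interval -0.29 to 0.08, edgeR adjusted p = 0.433). Rheb, the GTPase that TSC restrains, on chromosome 5 from 24802823 to 24842624 (minus strand), had the fewest counts of the 9, 464 to 673 per library. The E-box printed for Rheb spans positions -96 to -91 from the RefSeq start of its window. That start differs from the start of the gene span given here, and the E-box lies inside that span. At 464 counts the exact 95% Poisson interval is 423 to 508, which covers counting error only. The level of Rheb was 34.6, 35.5 and 34.8 CPM in Srebp2WT and 34.1, 37.5 and 39.2 CPM in Srebp2cKO, with library 6 at the bottom of all 6. Rheb did not pass, at a log2 fold change of 0.08 (95% interval -0.11 to 0.27, edgeR adjusted p = 0.565).

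Akt1, which encodes an AKT kinase, lies on chromosome 12 from 112653821 to 112674884 (minus strand), and the forkhead match printed for it spans positions -161 to -155. Its level was 121, 105 and 104 CPM in Srebp2WT and 105, 87.9 and 91.4 CPM in Srebp2cKO. Library 6 reached the range of Srebp2WT libraries 3 and 5, and the remaining Srebp2cKO libraries lay below. Akt1 did not pass (edgeR adjusted p = 0.158), with a log2 fold change of -0.22 (SE 0.09) and an interval of -0.42 to -0.01. Per kilobase of exon the ratio of Akt1 to Akt2, which encodes another AKT kinase, was 1.53 ± 0.122 in Srebp2WT and 1.48 ± 0.114 in Srebp2cKO, with overlapping libraries.

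Pik3ip1 encodes a membrane protein that binds and inhibits the PI3K catalytic subunit, and its transcript is high in resting T cells. It lies on chromosome 11 from 3330401 to 3342971 (plus strand). Its level was 57.2, 103 and 70.1 CPM in Srebp2WT and 113, 86.8 and 88.1 CPM in Srebp2cKO. It was the most variable of the 9 between libraries of 1 genotype: Srebp2WT library 3 lay above Srebp2cKO libraries 7 and 8, and the other two Srebp2WT libraries lay below all Srebp2cKO libraries. With a log2 fold change of 0.32 (SE 0.19) its interval was wide, from -0.09 to 0.74 (edgeR adjusted p = 0.278). Without Srebp2WT library 3 it was 0.59 (edgeR adjusted p = 0.0845), and without Srebp2WT library 1 it was 0.15 (edgeR adjusted p = 0.658).

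Inpp5d encodes SHIP1, the phosphatase of blood cells that removes the 5-phosphate of PIP3. It lies on chromosome 1 from 87620312 to 87720507 (plus strand). Its level was 224, 220 and 235 CPM in Srebp2WT and 219, 227 and 213 CPM in Srebp2cKO, so the libraries were interleaved. Its fold change was the smallest of the 9 and its interval among the tightest (log2 fold change -0.04, SE 0.07, 95% interval -0.19 to 0.11, edgeR adjusted p = 0.736). The interval leaves room for a level between 0.19 lower and 0.11 higher on the log2 scale.

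**Figure D1:**
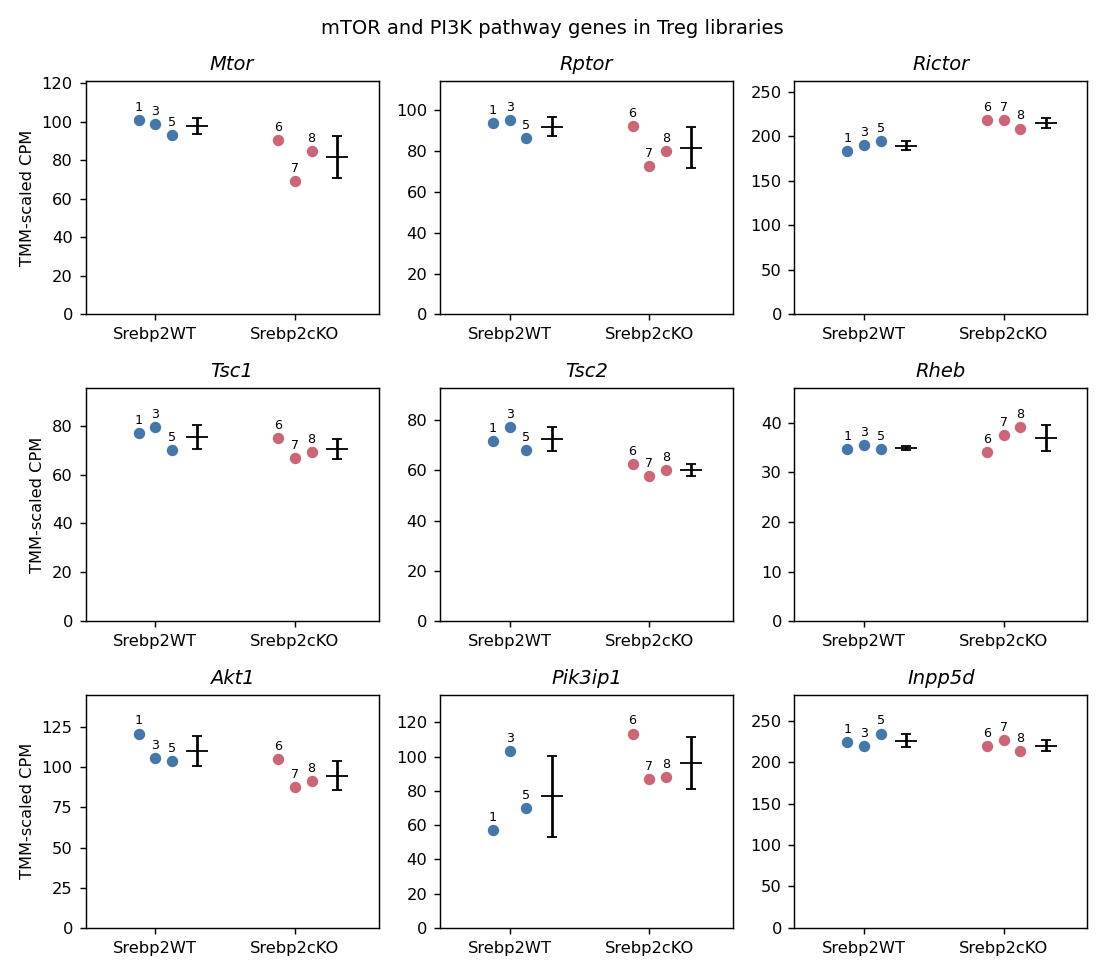
Level of each of the 9 genes in TMM-scaled CPM (vertical axes from 0) for the 3 Srebp2WT libraries (blue) and 3 Srebp2cKO libraries (red), labelled by library number, with the mean and SD as a black bar beside the points. Rictor (184 to 194 against 209 to 218 CPM), Mtor and Tsc2 show separated groups, and Pik3ip1 shows the widest spread within Srebp2WT (57.2 to 103 CPM).

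Per kilobase of exon, the Srebp2WT levels ran from Inpp5d (45.4 ± 1.56 CPM per kb) and Akt1 (40.9 ± 3.55) through Pik3ip1 (26.02 ± 8.04), Rictor (20.3 ± 0.568), Rheb (19.6 ± 0.254), Rptor (13.9 ± 0.702), Tsc2 (11.4 ± 0.752) and Mtor (11.1 ± 0.456) to Tsc1 (9.75 ± 0.642). The libraries overlapped for the neighbours Inpp5d and Akt1, Pik3ip1 and Rictor, Rictor and Rheb, and Tsc2 and Mtor, and did not overlap for the others. The order of the means was the same in Srebp2cKO, from 44.1 ± 1.39 CPM per kb for Inpp5d to 9.08 ± 0.532 for Tsc1. There the libraries of Inpp5d and Akt1, of Pik3ip1 and Rictor, and of Rictor and Rheb were separated, while those of Akt1 and Pik3ip1, Tsc2 and Mtor, and Mtor and Tsc1 overlapped. Counts per kilobase for Rictor thus exceeded those for Rptor and Mtor in both genotypes. These levels were not corrected for GC content, and log2 CPM fell with GC in every library. Rictor has 42.5% GC, against 56.5% for Rptor and 54.2% for Mtor. Whether the transcripts themselves differed in number was not tested.

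Fold changes of the 9 genes tended to be lower at higher transcript GC content, as they did across all genes, with exceptions among the 9. The low-GC transcripts of Rictor (42.5% GC) and Rheb (44.7%) had positive values. Mtor (54.2%), Tsc2 (54.7%), Rptor (56.5%) and Akt1 (59.7%) had negative ones, while Pik3ip1 (52.7%) stood apart with a positive value. Across the 9 genes Spearman's rho was -0.73 (Pearson's r -0.63), and across 11431 genes with a GC value rho was -0.50 (r -0.33). These are descriptions across genes that share the same 6 libraries, and genes are not independent replicates. In the decile of genes around Rptor the median log2 fold change was -0.17, equal to that of Rptor to 2 decimals, and around Rictor it was 0.16 against 0.18 for Rictor. For Akt1 the decile median was -0.26, below the -0.22 of the gene. For Mtor and Tsc2 it was -0.12, so both lay further below 0 than their decile. Inpp5d (53.6% GC), in that same decile, lay closer to 0 at -0.04. For Tsc1 and Pik3ip1 it was -0.07.

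Library by library, log2 CPM sloped on GC by the following amounts per 10 percentage points: -0.39, -0.36 and -0.52 in Srebp2WT and -0.53, -0.78 and -0.65 in Srebp2cKO. Every Srebp2cKO slope was steeper than every Srebp2WT slope. A technical trend and a genotype difference that follows GC therefore cannot be told apart, and removing the trend takes out both. Library 7 had the steepest slope. It was also the lowest of all 6 for 5 of the 9 genes (Mtor, Rptor, Tsc1, Tsc2 and Akt1). The share of all tested genes for which it was lowest was not counted, and a link to the slope was not tested. When a smooth trend on GC was removed from each library, Rictor had a log2 fold change of 0.01 (95% interval -0.14 to 0.16), Rptor of -0.03 (-0.17 to 0.12) and Akt1 of 0.03 (-0.14 to 0.19). Mtor kept -0.16 (-0.33 to 0.00413) and Tsc2 -0.15 (-0.30 to -0.01), with edgeR adjusted p = 0.238 and 0.201. Pik3ip1 had 0.38 (SE 0.17, 95% interval -0.00199 to 0.76, edgeR adjusted p = 0.231). Inpp5d (0.05), Rheb (-0.05) and Tsc1 (-0.07) stayed near 0. The change in the log2 ratio of Rptor to Rictor went from -0.35 to -0.04. With the trend removed, 5.97% of 11431 genes passed (1.94% higher and 4.03% lower) and again 0 of the 9 did, 1 of them at an unadjusted p under 0.05 (Tsc2), against 21.9% of all genes.

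**Figure D2:**
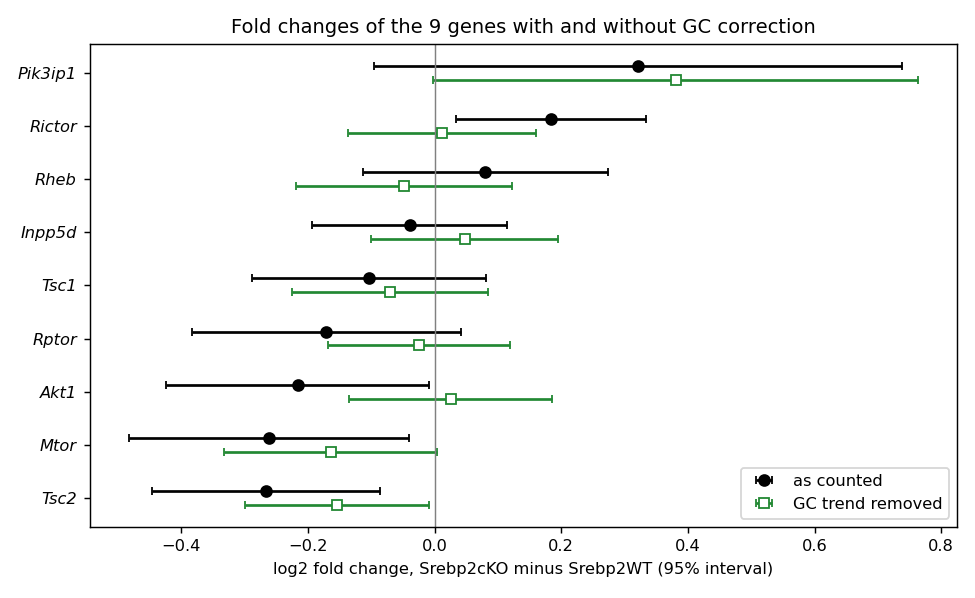
Log2 fold change of each of the 9 genes, Srebp2cKO minus Srebp2WT, with its 95% interval, as counted (black circles) and with the GC trend removed (open green squares). Rictor moved from 0.18 to 0.01 and Rptor from -0.17 to -0.03 with the same sign, Akt1 from -0.22 to 0.03 with a change of sign, and Mtor (-0.16), Tsc2 (-0.15) and Pik3ip1 (0.38) lay furthest from 0 after the correction.

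**Figure D3:**
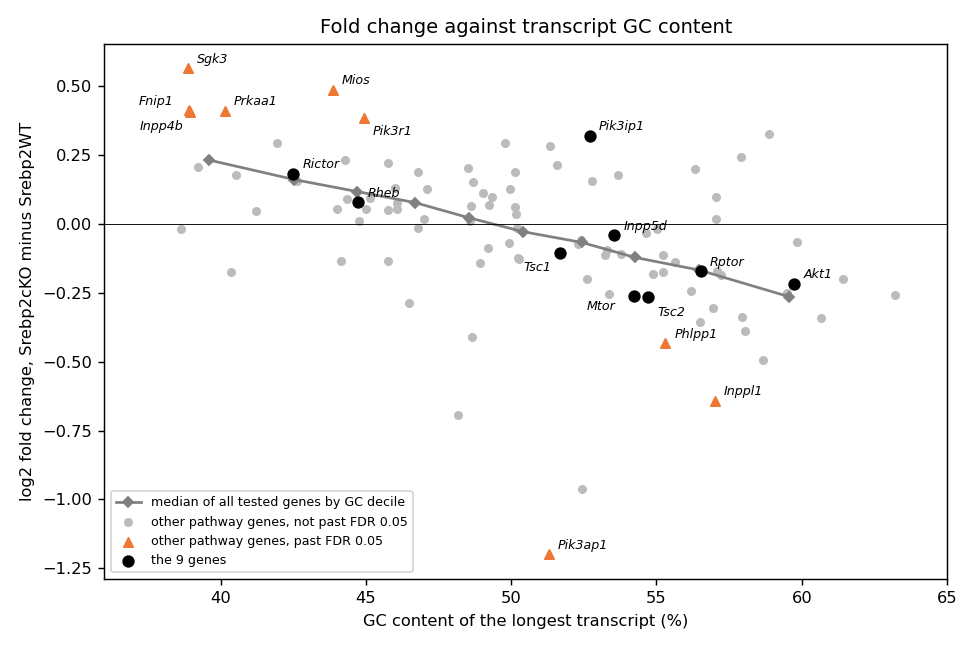
Log2 fold change against GC content of the longest transcript for the 9 genes (black), 9 of the 10 pathway genes that passed (orange triangles) and other pathway genes that did not (grey points), with the median of all tested genes by GC decile (grey line with diamonds). The decile medians run from 0.23 to -0.26; Rictor, Rheb and Rptor lie near the line, Mtor and Tsc2 lie below it and Inpp5d and Pik3ip1 above it.

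The rest of the pathway was read from 8 lists written by role, holding 98 genes, of which 92 were tested. Of these 10 passed in edgeR, 7 higher (7.61%, against 2.37% of all genes) and 3 lower (3.26%, against 4.24%), and the median log2 fold change was 0.01. The calls depended on single libraries, here and across all genes, of which 789 passed with no library left out. Pathway calls out of 92 are given with those of all genes in brackets. They were 0 (167 of 12036), 0 (184 of 12046) and 9 (1082 of 12064) without Srebp2WT libraries 1, 3 and 5. Without Srebp2cKO libraries 6, 7 and 8 they were 14 (1487 of 12077), 2 (298 of 12110) and 4 (439 of 12099). With the GC trend removed 5 passed, 4 higher (4.35%, against 1.94% of all genes) and 1 lower (1.09%, against 4.03%). Of these 5, 2 were among the 10, Pik3ap1 being in both. The 7 genes that rose had transcripts of 38.9% to 44.9% GC, and the 3 that fell had 51.3% to 57.0%. Calls of all genes followed GC too. In the lowest GC decile 82 of 1145 genes rose and 8 fell, and in the highest 4 of 1143 rose and 111 fell. The shares of all genes given above are not matched on GC.

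Among 8 tested genes of the remaining mTOR complex subunits and assembly factors, 0 passed in edgeR, DESeq2 or limma-voom (median log2 fold change -0.02). At an unadjusted p under 0.05 there was 1 gene of the 8, against 29.1% of all tested genes. That gene was Akt1s1, which encodes the mTORC1 inhibitor PRAS40 (17.1 ± 1.94 and 13.5 ± 1.03 CPM, log2 fold change -0.34, edgeR adjusted p = 0.114). With the GC trend removed Akt1s1 had -0.08 (edgeR adjusted p = 0.705). Telo2, a chaperone partner that helps fold mTOR, had a log2 fold change of -0.25 (edgeR adjusted p = 0.274), and -0.18 without the GC trend (edgeR adjusted p = 0.470).

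Of 7 tested genes around TSC, RHEB and AKT, 2 rose and 0 fell (median 0.07). Sgk3, an AKT-related kinase recruited to endosomes, rose from 23.3 ± 2.79 to 34.5 ± 1.11 CPM (log2 fold change 0.57, edgeR adjusted p = 0.0171). Without the GC trend Sgk3 was at 0.31 (edgeR adjusted p = 0.0889).

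Of 9 tested class I PI3K subunits and adaptors, 1 rose and 1 fell (median 0.05). Pik3r1, which encodes the regulatory subunit p85 alpha, was 349, 428 and 434 CPM in Srebp2WT and 543, 546 and 491 CPM in Srebp2cKO. The genotypes did not overlap (log2 fold change 0.38, SE 0.10, edgeR adjusted p = 0.0425), and the value was 0.26 with the GC trend removed (edgeR adjusted p = 0.102). Pik3cd, the leukocyte catalytic subunit p110 delta, held 70.6% ± 0.577 of catalytic counts per kilobase in Srebp2WT and 69.9% ± 1.94 in Srebp2cKO. Its log2 fold change was 0.02 (95% interval -0.15 to 0.18, edgeR adjusted p = 0.896), and it was -0.02 with scaling to total counts. With the GC trend removed Pik3cd had 0.18 (95% interval 0.05 to 0.31), which did not pass (edgeR adjusted p = 0.113).

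**Figure D4:**
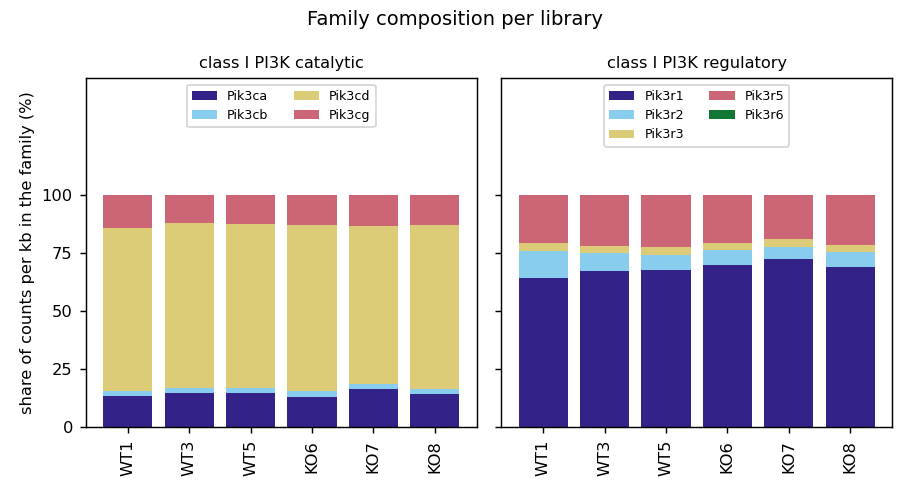
Share of counts per kilobase of exon within the class I PI3K catalytic and regulatory families for each library (stacked bars, percent of the family total, bars ending at 100). Pik3cd holds 67.7% to 71.5% of the catalytic bar in all libraries, and Pik3r1 holds 66.3% ± 1.79 of the regulatory bar in Srebp2WT and 70.4% ± 1.85 in Srebp2cKO. The shares were not corrected for GC content (Pik3r1 44.9%, Pik3r5 56.3% and Pik3r2 61.4% GC). With the GC trend removed, the log2 fold change was 0.26 for Pik3r1 and 0.34 for Pik3r5.

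Pik3ap1, an adaptor that links receptors to PI3K and is best known from B cells and macrophages, had 78, 78 and 53 counts in Srebp2WT and 24, 28 and 39 in Srebp2cKO. Its mean of 4.50 ± 0.793 CPM fell to 1.95 ± 0.283 CPM (log2 fold change -1.20, edgeR adjusted p = 0.0225), and by 1.18 on the log2 scale with the GC trend removed (edgeR adjusted p = 0.0196). Summed B cell markers stood at 56.3 to 77.3 CPM in Srebp2WT and 25.99 to 34.7 CPM in Srebp2cKO, and summed myeloid markers at 50.3 to 82.7 and 33.5 to 39.6 CPM. CD8 T cell markers went the other way, at 6.97 to 7.39 and 8.77 to 10.5 CPM. The difference had an exact two-sided permutation p of 0.1 for each of these 3 lists, the smallest that 3 against 3 allows (0.2 adjusted over 6 lists). Of the 6 B cell markers, 0 were at 0 counts in every library, but Ms4a1 held at most 2. Of the 6 myeloid markers 0 were at 0 in every library, and Lyz2 held at most 5 counts. Most of the sums came from Cd74 (39.2 and 17.7 CPM), also expressed outside B cells, and Cybb (60.7 and 33.1 CPM). Within these lists Cd79a (0.674 and 0.996 CPM) and Itgam (0.960 and 2.03 CPM) had higher means in Srebp2cKO. Their part in the Pik3ap1 result was not tested.

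Of 9 further brakes on PI3K and AKT, 1 rose and 2 fell (median -0.12). Inpp4b, which encodes a phosphatase of the PI3K product that SHIP1 makes, rose from a mean of 1229 ± 48.3 CPM to 1630.3 ± 94.5 (edgeR adjusted p = 0.0193, log2 fold change 0.41). With the GC trend removed it stood at 0.15 (edgeR adjusted p = 0.219). Inppl1, which encodes SHIP2, the paralog of SHIP1, was 39.3, 29.2 and 29.0 CPM in Srebp2WT and 20.1, 19.1 and 23.2 CPM in Srebp2cKO. It fell with no overlap (log2 fold change -0.64, SE 0.14, edgeR adjusted p = 0.0260), and had -0.48 without the GC trend (edgeR adjusted p = 0.0598). Phlpp1, a phosphatase of AKT, fell from 59.6 ± 7.88 to 44.2 ± 0.386 CPM (log2 fold change -0.43, edgeR adjusted p = 0.0361), and had -0.31 without the GC trend (edgeR adjusted p = 0.0851).

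Of 27 genes of amino acid sensing and the lysosomal scaffold, 2 rose and 0 fell (median -0.01). These were Mios, of the GATOR2 complex that promotes mTORC1 activation (26.1 ± 2.86 and 36.5 ± 3.29 CPM, log2 fold change 0.49, edgeR adjusted p = 0.0310), and Fnip1, the partner of folliculin at the lysosome (77.3 ± 7.04 and 103 ± 7.15 CPM, log2 fold change 0.41, edgeR adjusted p = 0.0275). Neither passed with the GC trend removed (0.33 and 0.15, edgeR adjusted p = 0.0786 and 0.218). Of 9 tested genes of AMPK and stress inhibition, Prkaa1, the AMPK catalytic subunit alpha 1, rose from 78.7 ± 6.64 to 105 ± 14.3 CPM (log2 fold change 0.41, edgeR adjusted p = 0.0488) and 0 fell (median 0.16). The Prkaa1 call was marginal: it was lost in 16 of 23 alternatives. Among them were limma-voom (adjusted p = 0.0509), RLE scaling (edgeR adjusted p = 0.0515), total-count scaling (0.0624) and removal of the GC trend (0.17, edgeR adjusted p = 0.190). Other calls were also lost: Pik3r1 in 13 alternatives, Mios and Fnip1 in 12, Inpp4b and Phlpp1 in 11, Sgk3 and Inppl1 in 10 and Pik3ap1 in 7. Stk11, the AMPK activator LKB1, had -0.25 as counted (edgeR adjusted p = 0.104) and 0.00 without the trend (-0.00279).

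Among 16 tested substrates and outputs of mTORC1 and AKT (median -0.06), 0 passed in edgeR and limma-voom and 1 in DESeq2. Of all tested genes 6.61%, 6.55% and 11.8% passed in edgeR, limma-voom and DESeq2. At an unadjusted p under 0.05 there were 6 of the 16, against 29.1% of all tested genes. Rps6, the ribosomal protein phosphorylated downstream of mTORC1, stood at 766 ± 27.0 and 961 ± 100.2 CPM (log2 fold change 0.33, edgeR adjusted p = 0.0533). With the GC trend removed it passed at 0.56 (edgeR adjusted p = 0.0253), as did Larp1 at 0.27 (edgeR adjusted p = 0.0341), a repressor of ribosomal protein mRNA translation that was named after its values were seen. Ribosomal protein genes have many processed copies, so the Rps6 count is uncertain. Ulk1, the autophagy kinase that mTORC1 inhibits, had a log2 fold change of -0.34 (edgeR adjusted p = 0.0940), and -0.14 without the GC trend (edgeR adjusted p = 0.323).

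Among 8 genes that connect lysosomal cholesterol to mTORC1 (median 0.00, that is -0.00426), 0 passed in edgeR and limma-voom. In DESeq2 1 passed, against 11.8% of all tested genes. At an unadjusted p under 0.05 there were 3 of the 8, against 29.1% of all tested genes. Npc2, a carrier of cholesterol inside the lysosome, stood at 144 ± 10.5 and 176 ± 4.85 CPM (log2 fold change 0.28, edgeR adjusted p = 0.0529) and passed with the GC trend removed (0.31, edgeR adjusted p = 0.0260). Tmem97, the sigma-2 receptor and an NPC1-binding protein, stood at 2.63 ± 0.397 and 1.36 ± 0.398 CPM (log2 fold change -0.96, edgeR adjusted p = 0.0763). It rested on few counts, 49, 39 and 34 in Srebp2WT and 24, 15 and 23 in Srebp2cKO. Without the GC trend Tmem97 had -0.91 (edgeR adjusted p = 0.0962).

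**Figure D5:**
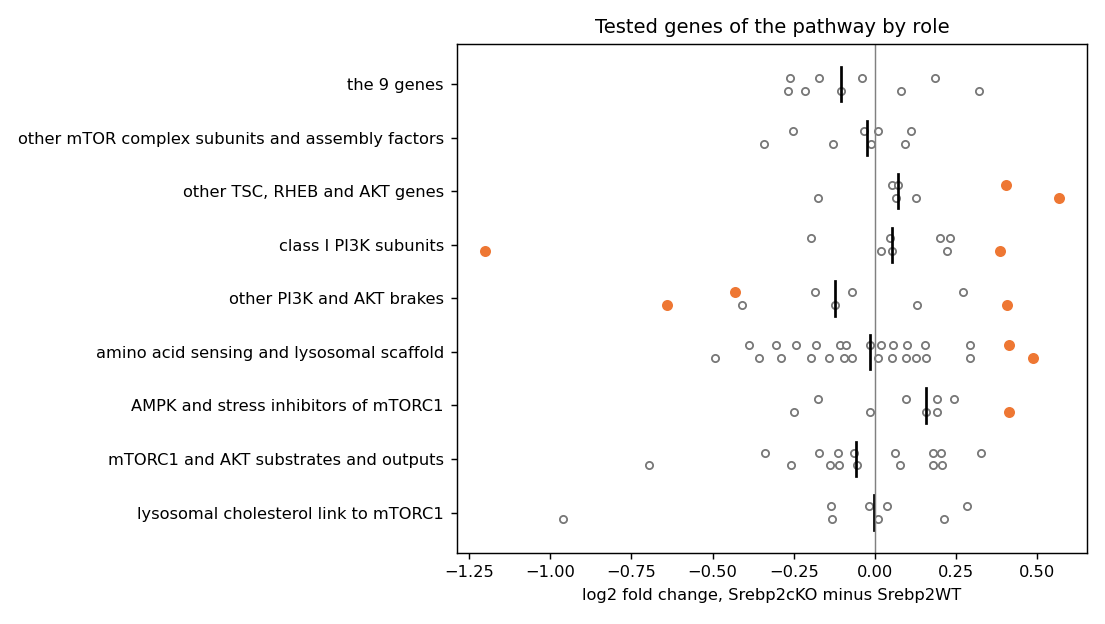
Log2 fold change of every tested gene, Srebp2cKO minus Srebp2WT, in the 9 genes and the 8 lists by role (rows, with points staggered for legibility). Filled orange points passed a false discovery rate of 0.05, open points did not, and the vertical bar is the median, which ran from -0.12 for the brakes to 0.16 for AMPK and stress inhibitors.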

How the data were processed

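The authors deposited raw counts per gene symbol for 6 libraries, made from total RNA with a kit that depletes ribosomal RNA, per the labels' protocols. The submitters' processing notes name HISAT2 2.2.1, Cell Ranger and mm10 without their roles; the sources used here give no counter, annotation or strand setting. Columns were matched by sample titles. Replicate libraries all differed by more than counting noise (chi-square 6.71 to 34.8 per degree of freedom). Genes were filtered by filterByExpr (11932 of 24421 kept), scaled by TMM and compared by edgeR 4.0.16 (glmQLFTest, R 4.3.3), Benjamini-Hochberg adjusted over all genes tested. The code was also run on simulated counts with a common dispersion, no GC trend and changes larger than those of the 9 genes. That run cannot show how the test behaves under a GC trend or for changes as small as theirs. The SE is the log2 fold change divided by the square root of F. Alternatives used DESeq2 1.42.0, limma-voom (limma 3.58.1), other scalings and filters, left-out libraries and removal, as offsets, of each library's loess trend of expression on longest-transcript GC (span 0.3), for 11431 genes with GC. Symbols matched GENCODE M21 (GRCm38) for 23334 genes, which gave positions and exonic lengths; levels per length are CPM per kb of merged exons. Named genes were the 9, Srebf2, every pathway gene that passed (at least 2 by p in each list) and the most abundant gene per length of 3 families. The rule for genes of like pattern applied to none, since none of the 9 passed. The members and lists were chosen with earlier results of these data known. Results for some items are not reported here, and named genes and the plot against GC leave them out.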

Additional observations from a re-analysis of the deposited data

How the results depend on the processing

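No paired analysis was possible because the genotypes share no replicate number. Fits that left out 1 library rest on 2 libraries in 1 genotype and assume that these vary like the others. Of the 9 genes, 0 passed under every alternative but 2: Tsc2 (1 gene) at a false discovery rate of 0.1, and Pik3ip1 with the GC trend removed and Srebp2WT library 3 left out (log2 fold change 0.63, edgeR adjusted p = 0.0417), a combination chosen after seeing the data; over its 23 alternatives the adjusted p of Pik3ip1 ran from 0.0417 to 0.658. With libraries left out, with and without the GC trend, 0 to 1 of the 9 passed, 0 to 14 of the 92 pathway genes, and 167 to 1487 of all genes. All genes called numbered 1404 with DESeq2, 1205 with no low-count filter and 1893 at a false discovery rate of 0.1. Pathway genes called numbered 16 at a false discovery rate of 0.1 and 5 with the GC trend removed, also with total-count scaling (5). Total-count scaling called 184 genes higher and 570 lower. Of the 230 values of the 10 called pathway genes, 118 kept and 112 lost their call, and 0 reversed.

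With the GC trend removed, Akt1 (0.025), Rheb (-0.048) and Inpp5d (0.047) reversed, and Rictor (-0.059) and Rheb (-0.12) did so with the GC trend removed and total-count scaling. Pik3cd reversed with upper-quartile (-0.00503) and total-count scaling (-0.016). With libraries left out, with or without the GC trend, values ran from -0.29 to 0.083 for Akt1, -0.069 to 0.077 for Inpp5d, -0.088 to 0.14 for Rheb, -0.051 to 0.21 for Rictor, -0.26 to 0.00624 for Rptor, -0.014 to 0.22 for Pik3cd and -0.29 to 0.050 for Stk11. Mtor (-0.34 to -0.09), Tsc2 (-0.31 to -0.13) and Tsc1 (-0.16 to -0.05) kept their direction in these fits, as did Pik3ip1. At 464 to 673 counts per library, counting error for Rheb was wider than for Inpp5d (half-width of the 95% interval 9.21% at 464 counts and 3.25% at 3658).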
